A study of Homo sapiens with 2 samples.

Results

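The genes described here encode the RUNX transcription factors, their partner CBFB, the ETO corepressors and the core proteins of the SCL complex. They were chosen by name: RUNX1, RUNX2, RUNX3, CBFB, CBFA2T3, RUNX1T1, TAL1, LYL1, LMO2 and LDB1. All 10 had a probe set annotated to that gene symbol alone, 1 probe set each, among 18404 genes with such a probe set, and 0 of them were also on probe sets shared by several symbols. The samples were 2 Affymetrix Human Gene 1.0 ST arrays of wild-type HL-60, a human promyelocytic leukaemia line, labelled replicates 1 and 2 and grown in DMEM with serum. They form 1 group with no treatment, genotype or control to set them against, so no p-value is given. Whether the replicates were separate cultures is not stated, and the spread between them may be technical.

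RUNX proteins bind DNA through their Runt domain, and CBFB, which does not bind DNA itself, strengthens that binding. RUNX1 is needed to form blood stem cells and for myeloid and megakaryocyte maturation. The SCL complex joins TAL1 or its relative LYL1, each paired with an E protein, to a GATA factor through the adaptors LMO2 and LDB1, and the ETO proteins bring histone deacetylases to it. Several of these genes are broken by translocations in acute leukaemia, RUNX1 with RUNX1T1 among them.

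The values are the signals that the authors deposited after RMA, a background correction, normalization and summary over the probes of a probe set. Their log base is not stated and was taken as 2, that of RMA, and which arrays were normalized together is not stated either. Background was set at the 95th percentile of 359 olfactory receptor genes, 2.88 on replicate 2 and 2.98 on replicate 1. A stricter second threshold, 5.23 on replicate 2 and 5.41 on replicate 1, came from 115 genes of beta-defensins, bitter taste receptors and keratin-associated proteins. Probes differ in how strongly they bind, so the signals of different genes do not rank their transcripts. Over all genes, replicate 2 minus replicate 1 had an SD of 0.39 (log2), or 0.28 per array, and single-gene SDs of n = 2 are best read against those. The small number of arrays limits the precision.

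Windows of 300 bases at the RefSeq gene starts (build GRCh38.p14, 250 bases before the start to 50 from it) were found for 7 of the 10 genes. The 4 windows that held letters recognised by RUNX or GATA factors are shown, because these are the factors the genes encode or work with. In RUNX2 and RUNX3 the capitals mark the core that RUNX proteins bind, searched as TGTGGT and in a variant form as TGCGGT, and in TAL1 and LYL1 they mark a GATA site, searched as AGATAA and in a variant form as TGATAA, on either strand. On the opposite strand these letters appear as their reverse complements. The sequences run 5′ to 3′ along the gene, from chr6:45328080-45328379 (plus strand) for RUNX2, chr1:24964961-24965260 (minus strand) for RUNX3, chr1:47232286-47232585 (minus strand) for TAL1 and chr19:13102809-13103108 (minus strand) for LYL1.
RUNX2: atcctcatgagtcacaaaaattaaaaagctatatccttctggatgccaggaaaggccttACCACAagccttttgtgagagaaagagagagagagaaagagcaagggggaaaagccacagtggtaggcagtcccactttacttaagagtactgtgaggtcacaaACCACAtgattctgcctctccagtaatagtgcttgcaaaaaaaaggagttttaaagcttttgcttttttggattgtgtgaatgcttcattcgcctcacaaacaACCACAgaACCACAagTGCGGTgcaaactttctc
RUNX3: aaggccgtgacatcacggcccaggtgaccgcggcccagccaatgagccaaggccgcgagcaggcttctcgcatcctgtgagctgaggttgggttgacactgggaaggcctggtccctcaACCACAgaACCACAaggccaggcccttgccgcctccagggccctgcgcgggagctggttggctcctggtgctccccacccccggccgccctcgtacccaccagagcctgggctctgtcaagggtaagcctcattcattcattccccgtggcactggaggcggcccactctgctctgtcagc
TAL1: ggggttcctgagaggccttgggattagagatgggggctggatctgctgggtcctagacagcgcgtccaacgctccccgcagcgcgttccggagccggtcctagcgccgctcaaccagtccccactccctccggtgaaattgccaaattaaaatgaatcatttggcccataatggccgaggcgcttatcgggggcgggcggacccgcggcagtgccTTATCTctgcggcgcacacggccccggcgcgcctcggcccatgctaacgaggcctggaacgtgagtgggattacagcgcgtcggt
LYL1: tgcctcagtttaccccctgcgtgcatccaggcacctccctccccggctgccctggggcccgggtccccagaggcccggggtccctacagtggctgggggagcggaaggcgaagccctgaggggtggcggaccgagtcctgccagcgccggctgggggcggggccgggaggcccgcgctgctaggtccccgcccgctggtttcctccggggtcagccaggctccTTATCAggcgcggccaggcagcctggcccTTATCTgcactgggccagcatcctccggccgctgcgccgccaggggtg

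The RUNX2 window held 5 RUNX matches, 4 of TGTGGT and 1 of TGCGGT. Of 27303 windows of the same length, 19.4% held at least 1 such match and 3 windows (0.011%) held 5 or more. The matches in RUNX2 lay at -191, -87, 16, 24 and 32 bases from the gene start, counted to the first base of the match with the start as 0, and 3 of them overlapped an E-box CANNTG. The RUNX2 window held 2 such E-boxes and 0 of the narrower form CAGNTG, which was in 49.9% of all windows. RUNX3 held 2 matches, at -131 and -123, a number reached by 2.3% of windows, and neither overlapped an E-box. The RUNX1 window held 0. For GATA, LYL1 held 2 matches, at -27 and 2, and TAL1 held 1, at -35, where 16.6% of all windows held at least 1 and 2.99% at least 2. None of these 3 overlapped an E-box or a RUNX match. The windows of RUNX1, CBFA2T3 and LDB1 held neither a RUNX nor a GATA match. E-boxes, the site of TAL1 and LYL1 with an E protein, are common: CANNTG was in 68.9% of all windows. These counts describe letters and not binding, and a gene-level signal does not show which start site was used.

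The study asked how DNA methylation relates to expression, and CpG, the dinucleotide that is methylated, differed widely in number among the 7 windows. CBFA2T3 had 46 CpG, RUNX1 40, TAL1 30, LYL1 23, RUNX3 15, LDB1 13 and RUNX2 2, where the median of all windows was 14. The windows read for RUNX1 and RUNX2, both above the second threshold on both arrays, thus stood far apart in CpG number. A single window was read per gene and any other start sites were not, so the contrast is between windows and not whole genes. CBFA2T3 had the most CpG of the 7 and passed the olfactory threshold by no more than 0.56. Methylation itself was not measured on these arrays.

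Of the 10 genes, 9 were above the olfactory threshold on both arrays, and 4 of these, RUNX1, RUNX2, CBFB and LDB1, exceeded the second threshold as well. The shares among all genes were 55.8% for the first threshold and 17.0% for the second. The median signal of the 10 genes was 5.11 on replicate 2 and 4.67 on replicate 1, beside 3.34 and 3.35 for all genes on the same arrays. The plot of the 10 genes shows each array with both thresholds.

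**Figure D1:**
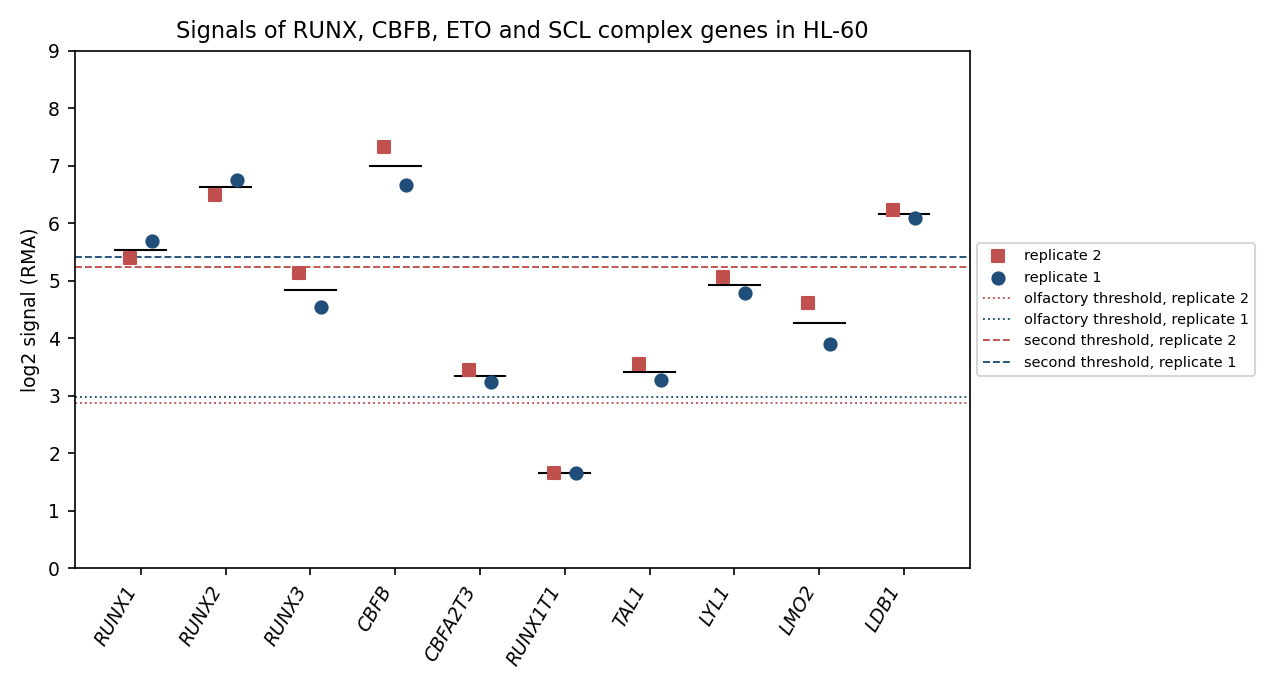
Log2 signal (RMA) of each gene on replicate 2 (red squares) and replicate 1 (blue circles), with the mean of both as a black line. Dotted lines are the olfactory and dashed lines the second threshold of each array; RUNX1T1 alone lies under the olfactory lines, and RUNX1, RUNX2, CBFB and LDB1 lie over the dashed lines.

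Among the RUNX genes, RUNX2, best known as the regulator of bone formation, read 6.49 on replicate 2 and 6.76 on replicate 1 (6.63 ± 0.19, mean ± SD, n = 2). It was at least 1.26 above the second threshold on each array. Of 6 measured bone marker genes 2 passed the olfactory threshold on each array, the factor gene SP7 (3.69 ± 0.25) and the cartilage collagen gene COL10A1 (2.98 ± 0.12, over it by 0.02 on replicate 2). The other bone marker genes IBSP, SPP1 (the lowest, 1.96 on both arrays), ALPL and MMP13 did not pass it on either array. This share of the bone markers, 33.3%, was smaller than the 55.8% found for all genes. The second threshold was exceeded by 0 of the 6. When the 99th percentile of olfactory receptor genes was used instead, 0 of the 6 remained.

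RUNX1 read 5.39 on replicate 2 and 5.69 on replicate 1 (5.54 ± 0.21). It exceeded the second threshold by 0.16 on replicate 2 and by 0.28 on replicate 1, margins no larger than about the spread of a single array (0.28). RUNX3, which acts in T cells, sensory neurons and myeloid cells, read 5.14 on replicate 2 and 4.55 on replicate 1 (4.85 ± 0.42). It was above the olfactory threshold, and its signal minus the second threshold was -0.09 on replicate 2 and -0.86 on replicate 1. The RUNX genes did not move alike between the arrays. RUNX3 was 0.59 higher on replicate 2 than on replicate 1, while RUNX1 was lower by 0.30 and RUNX2 by 0.26. The gap between RUNX3 and RUNX1 thus changed by 0.89. Of all genes, 11.9% differed at least as much as RUNX3, 40.2% as much as RUNX1 and 46.7% as much as RUNX2. These differences have no replicate check, since each side is 1 array.

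CBFB read 7.32 on replicate 2 and 6.67 on replicate 1 (6.99 ± 0.46). It was above the second threshold by 2.09 and 1.26 on those arrays. Its difference between the arrays, 0.65, was in the same direction as that of RUNX3 and opposite to those of RUNX1 and RUNX2. A difference at least that large was seen in 8.75% of all genes.

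Of the ETO genes 1 was just above the olfactory threshold and 1 was not. CBFA2T3, which encodes the ETO2 corepressor that joins the SCL complex in blood progenitors, read 3.44 on replicate 2 and 3.24 on replicate 1 (3.34 ± 0.14), above the olfactory threshold by 0.56 and 0.25. RUNX1T1, which encodes ETO, read 1.66 on both arrays, and its signal minus the olfactory threshold was -1.21 on replicate 2 and -1.32 on replicate 1. Its exact equality on the arrays is shared by 962 genes (5.23%), so its SD of 0 is not a sign of a smaller error. A fusion of RUNX1 with RUNX1T1 would carry sequence of both genes. A single signal per gene cannot show which part of a transcript was measured.

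The basic helix-loop-helix genes both passed the olfactory threshold and neither passed the second. TAL1, which encodes SCL, read 3.56 on replicate 2 and 3.27 on replicate 1 (3.41 ± 0.21), over the olfactory threshold by 0.68 and 0.28. LYL1, which can stand in for TAL1 in adult blood stem cells of mice, read 5.07 on replicate 2 and 4.79 on replicate 1 (4.93 ± 0.20), and its signal minus the second threshold was -0.16 and -0.62. TAL1 was 0.29 and LYL1 0.28 higher on replicate 2, each less than the SD of 0.39 over all genes.

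Of the adaptors, LDB1, whose self-association holds distant DNA elements together, read 6.24 on replicate 2 and 6.09 on replicate 1 (6.16 ± 0.10), above the second threshold by 1.00 and 0.68. LMO2, the LIM-only bridge between TAL1 and the GATA factor, read 4.61 on replicate 2 and 3.91 on replicate 1 (4.26 ± 0.50). It was above the olfactory threshold but not the second on each array. Its difference of 0.70, or 1.63-fold, was the largest of the 10 genes, and 7.23% of all genes differed by at least as much.

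Taking the 10 genes side by side, 7 were higher on replicate 2, 2 were lower and 1 was equal. Among all genes 42.1% were higher on replicate 2, as were 47.7% of those that passed the olfactory threshold on both arrays. The median difference was 0.24 for the 10 genes and -0.04 for all genes. None of the 10 differed by more than 1, where 1.96% of all genes did. RUNX3, CBFB and LMO2, 3 of the 10, differed by more than the SD of 0.39, where 27.9% of all genes did, so their number is close to that of genes at large. Quantile normalization or removal of a loess trend kept the sign of the 9 differences that were not 0 and gave RUNX1T1 a difference of 0.12. Promyelocyte markers moved the other way: 5 of 7 were lower on replicate 2, with a median difference of -0.73, and their summed linear signal was 996 on replicate 2 and 1755 on replicate 1. On each array 7 of 7 exceeded the olfactory threshold. The part of this shift in the differences of the RUNX and SCL genes was not tested.

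**Figure D2:**
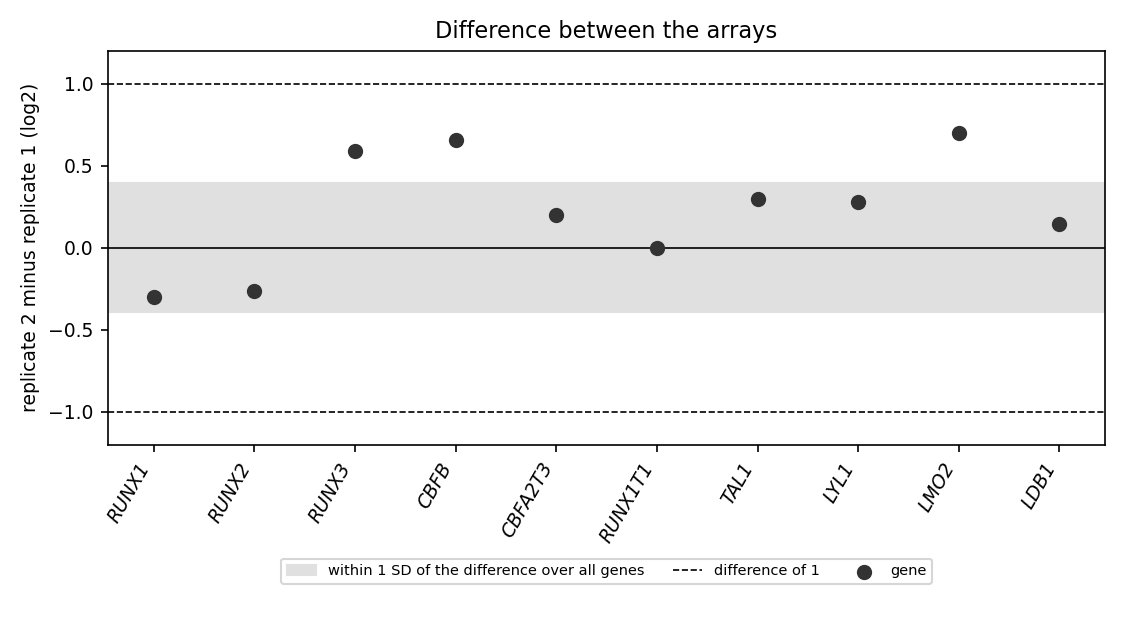
Difference of the log2 signal, replicate 2 minus replicate 1, for each of the 10 genes. The grey band is 1 SD (0.39) of the same difference over all genes and the dashed lines are at 1 and -1; RUNX3, CBFB and LMO2 lie above the band and RUNX1 and RUNX2 below 0.

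Among the listed genes for partners of TAL1, LYL1, LMO2 and LDB1, GATA3 alone was not above the olfactory threshold. Of 9 genes of E proteins, GATA factors and single-stranded DNA binding proteins, 8 exceeded the olfactory and 3 the second threshold on each array. Among all genes the shares were 55.8% and 17.0%. With the 99th percentile of olfactory receptor genes as threshold, 7 of the 9 remained. The E protein genes TCF12 (7.25 ± 0.24) and TCF4 (5.57 ± 0.19) were above both thresholds on both arrays. TCF3, which encodes E12 and E47, read 5.02 on replicate 2 and 5.68 on replicate 1 and passed the second threshold on replicate 1 only. GATA2, the progenitor GATA factor, read 4.54 on replicate 2 and 4.71 on replicate 1, and GATA1, the erythroid and megakaryocytic one, 3.65 and 4.04. Both passed the olfactory threshold only. The T cell factor gene GATA3 (2.45 ± 0.30) was under it on both arrays. SSBP3 (5.90 ± 0.15), which like the other SSBP genes encodes a protein that stabilises LDB1, was above both thresholds. SSBP2 (5.20 ± 0.33) passed the second on replicate 2 only and SSBP4 (4.89 ± 0.15) on neither. Of these 9 genes, 7 were lower on replicate 2 and TCF12 and SSBP2 were higher, with a median difference of -0.21, where the 10 RUNX and SCL genes had 0.24.

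Paralogues of the complex genes were mostly not above background. Of 6, LMO4 (3.56 ± 0.18) and LDB2 (3.40 ± 0.41) passed the olfactory threshold on both arrays, and none passed the second. Among all genes 55.8% passed the first and 17.0% the second. CBFA2T2, the remaining ETO family gene, read 2.82 on replicate 2, under the threshold, and 2.99 on replicate 1, over it by less than the spread of an array. LMO3 (2.32 ± 0.14) and the T cell leukaemia genes LMO1 (2.40 ± 0.11) and TAL2 (2.45 on both arrays) did not pass on either array. Of the 4 ID genes, which encode proteins that sequester E proteins from partners such as TAL1, ID4 (3.06 ± 0.13) passed the olfactory threshold on both arrays. Its margins, 0.09 on replicate 2 and 0.16 on replicate 1, were less than the spread of an array. ID1 (2.49 ± 0.07), ID2 (2.33 on both arrays) and ID3 (1.95 ± 0.24) did not pass. With the 99th percentile of olfactory receptor genes as threshold, 0 of the 6 paralogues and 0 of the 4 ID genes remained.

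**Figure D3:**
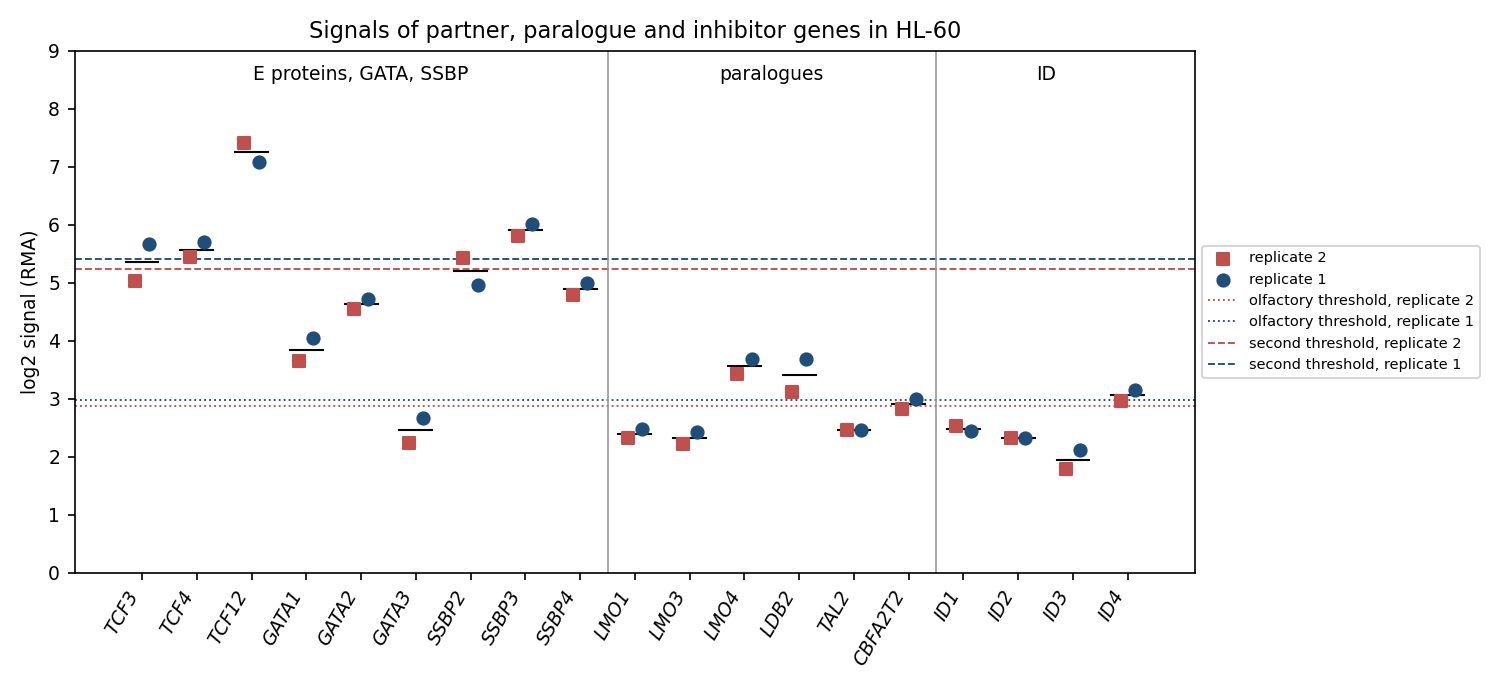
Log2 signal (RMA) of E protein, GATA and SSBP genes, of paralogues of the complex genes and of ID genes on replicate 2 (red squares) and replicate 1 (blue circles), with the mean as a black line and thresholds as dotted (olfactory) and dashed (second) lines. TCF12, TCF4 and SSBP3 lie over the dashed lines, and most paralogues and ID genes lie under the dotted ones.

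Most corepressor and coactivator genes whose proteins RUNX and ETO proteins recruit were above background. Of 11 corepressor genes measured, 9 exceeded the olfactory threshold and 7 the second on each array. The histone deacetylase genes HDAC2 (8.70 ± 0.37) and HDAC1 (8.31 ± 0.26) had the highest signals and TLE1 (2.41 ± 0.20), a Groucho family gene, the lowest. TLE3, of the same family, differed by 1.09 between the arrays (4.27 on replicate 2, 3.17 on replicate 1) and was named because it was the only corepressor past 1, after its values were seen. Of 7 coactivator genes, 7 exceeded the first threshold and 4 the second, led by the acetyltransferase genes EP300 (6.71 ± 0.07) and CREBBP (6.63 ± 0.27), with KAT6B (4.89 ± 0.09) lowest.

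Known target genes were read beside all genes, of which 55.8% were over the olfactory threshold and 17.0% over the second. The shares of the RUNX targets were near these, and those of the SCL targets were lower at both thresholds. Both lists are short, and no test of these shares was made. Of 5 measured genes with RUNX sites in their myeloid control regions, MPO (7.84 ± 0.52), SPI1 (4.90 ± 0.16) and ELANE exceeded the olfactory threshold, and MPO alone the second. The interleukin gene IL3 (2.39 ± 0.16) had the lowest signal, and the M-CSF receptor gene CSF1R was under the threshold on both arrays as well, so that 2 of the 5 did not pass. The difference, replicate 2 minus replicate 1, was -0.73 for MPO and 0.23 for SPI1, so the targets did not share a direction. Of 7 measured genes listed as erythroid targets of the SCL complex, KIT and NFE2 among them, 3 exceeded the olfactory and 0 the second threshold on each array. With the 99th percentile of olfactory receptor genes as threshold, 1 of the 7 remained. NFE2 read 4.56 ± 0.25, KLF1 3.71 ± 0.01 and the membrane protein gene EPB42, the lowest, 1.87 ± 0.09.

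**Figure D4:**
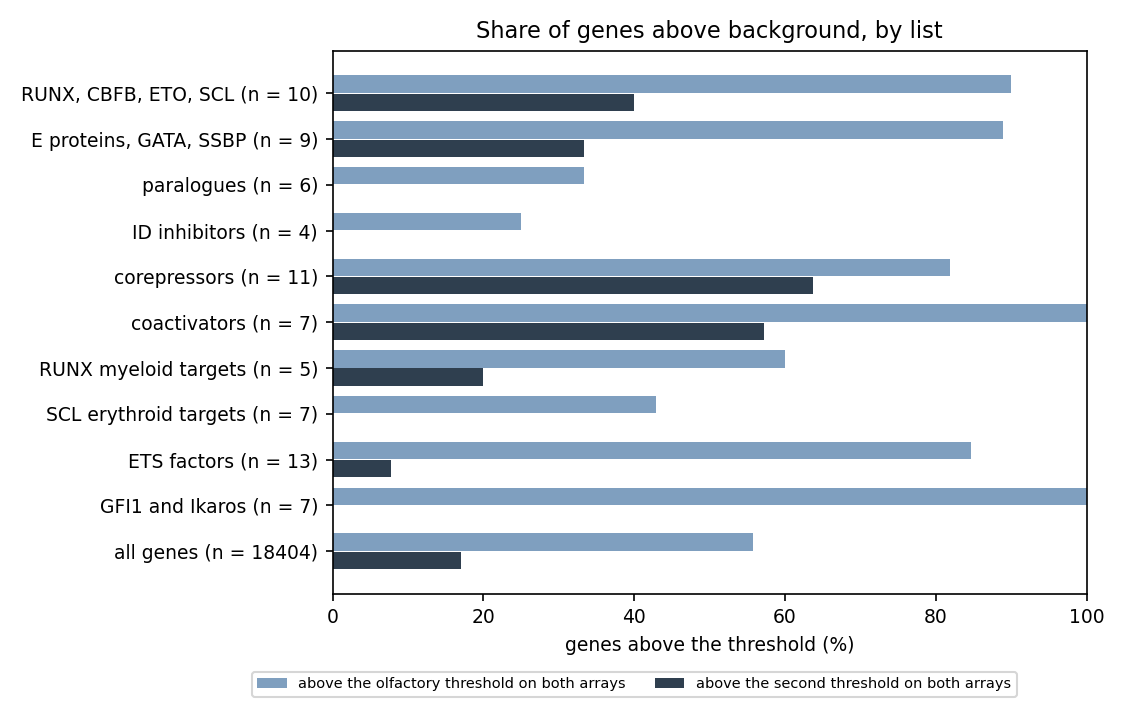
Share (%) of the measured genes of each list above the olfactory threshold (light bars) and above the second threshold (dark bars) on both arrays, with the number measured and all genes at the bottom. Of the 10 RUNX, CBFB, ETO and SCL genes 9 and 4 passed, beside 55.8% and 17.0% of all genes.

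The promyelocyte markers were above background: 7 of 7 exceeded the olfactory threshold and 4 the second. The granule genes SRGN (9.13 ± 0.17) and CTSG (8.12 ± 1.24) had the highest signals and AZU1 (3.10 ± 0.13) the lowest. AZU1 passed the olfactory threshold by 0.03 on replicate 1, and at the 99th percentile 6 of the 7 markers remained. Of endothelial markers, a lineage that also uses TAL1 and LMO2, 0 of 7 passed the olfactory threshold on both arrays, with ESAM (2.44 ± 0.55) and TIE1 (2.44 ± 0.10) highest and TEK (2.04 ± 0.10) lowest. On the other marker lists, 1 of 5 erythroid, 3 of 6 megakaryocyte, 5 of 8 T and NK cell, 3 of 4 B cell and 1 of 6 monocyte genes passed it, and 0 of these passed the second. These shares are read beside the 55.8% of all genes. With the 99th percentile of olfactory receptor genes as threshold, fewer remained: 0 erythroid, 1 megakaryocyte, 1 T and NK cell and 0 B cell genes. The monocyte count stayed at 1. The 2 highest signals and the lowest were those of KLF1, ALAS2 (2.92 ± 0.31) and HBZ (1.51 ± 0.08) among erythroid genes, and of GP6 (3.80 ± 0.19), GP9 (3.20 ± 0.11) and VWF (2.24 on both arrays) among megakaryocyte genes. Among T and NK cell genes they were those of CD4 (4.70 ± 0.15), TBX21 (3.60 ± 0.25) and CD3E (2.04 ± 0.09). Among B cell genes they were those of CD79B (3.26 ± 0.10), CD79A (3.13 ± 0.15) and MS4A1 (1.93 ± 0.10). The monocyte genes ranged over CD68 (4.35 ± 0.35), FCN1 (2.86 ± 0.06) and MSR1 (1.27 ± 0.10).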

How the data were processed

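Total RNA of the HL-60 line was isolated with Trizol and DNase, amplified with NuGEN reagents and measured on Affymetrix Human Gene 1.0 ST arrays, per the labels' protocols. The authors deposited 1 RMA value for each probe set and array, per the submitters' processing notes. The values the authors deposited were taken as log2, the base of RMA, because neither their log base nor the arrays normalized together are stated. Of 32321 probe sets, 19158 had 1 gene symbol, 1388 several and 11775 none listed; only the first were named. Symbols were updated through Entrez IDs (19128 matched), and the 637 genes with several probe sets took their mean. Promoter windows are from RefSeq (GRCh38.p14). No test applies to 1 group of 2 arrays, so counts above thresholds and medians are descriptive. Genes named were the 10 genes, all measured E protein, GATA, SSBP and paralogue genes, and the 2 highest and the lowest of each other list; others were named where a count was small or a direction was described. Genes and lists were chosen with earlier results of these data known. Threshold and normalization steps were tested on simulated data. Alternatives were quantile normalization, loess, the highest probe set of a gene, the 99th percentile or the second set as threshold, a filter on dim genes and each array alone. Scanner files were not used here. The tools were Python 3.11.15, matplotlib 3.10.9, numpy 2.4.6, pandas 2.3.3 and statsmodels 0.14.6.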

Additional observations from a re-analysis of the deposited data

How the results depend on the processing

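No paired analysis was possible because both arrays belong to 1 group. With the second set as the threshold, 4 in place of 9 of the RUNX and SCL genes and 19 in place of 68 of the other listed genes were above background, since that threshold lies higher. With the 99th in place of the 95th percentile as threshold, 7 of the RUNX and SCL genes remained, without CBFA2T3 and TAL1, and 45 of the other listed genes. Without replicate 1 or without replicate 2 the RUNX and SCL genes above the olfactory threshold stayed at 9 and those above the second at 4, the other listed genes numbered 69 to 72, and the median of the 10 genes ranged over 4.67 to 5.11. On a single array the signals of RUNX3, CBFB and LMO2 moved by more than the spread of an array (0.28). The median difference of the 10 genes was 0.23 to 0.24 over the alternatives that keep both arrays and all 10 genes. The filter on dim genes removed RUNX1T1 and gave 0.28 for the remaining genes. After quantile normalization the median difference over all genes was 0.00 in place of -0.04, 49.4% of genes were higher on replicate 2, and so were 8 of the RUNX and SCL genes, RUNX1T1 having joined them. The number of arrays and the unknown probe affinities limit what single signals show.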

Other observations

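Families of myeloid factors that work beside RUNX1 gave the following values. Among all genes, 55.8% were over the olfactory threshold and 17.0% over the second. Of 13 measured ETS factor genes, 11 exceeded the olfactory and 1 the second threshold on each array, ELF1 (8.44 ± 0.06). ELF2 followed at 5.54 ± 0.45, and ERG, a partner of RUNX1, TAL1, LYL1 and LMO2 in blood stem cells, had the lowest signal, 2.25 ± 0.34, and was not above background. FLI1, its closest relative, read 5.90 on replicate 2 and 5.17 on replicate 1, and was named after its values were seen. ETS1, named for the same reason, was the only ETS gene that differed by more than 1 between the arrays, with 5.08 on replicate 2 and 3.60 on replicate 1. Of 7 GFI1 and Ikaros family genes, 7 exceeded the olfactory and 0 the second threshold on both arrays. GFI1 (5.56 ± 0.32) and IKZF1 (4.90 ± 0.14) were highest and IKZF3 (3.40 ± 0.25) lowest. With the 99th percentile of olfactory receptor genes as threshold, 3 of these 7 and 10 of the ETS genes remained. The median difference between the arrays was 0.12 for the ETS and 0.26 for the GFI1 and Ikaros genes, beside 0.24 for the RUNX and SCL genes. No test of these differences between lists was made.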
